A study of Mus musculus with 2 samples.

Results

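The transcripts described here are those that RefSeq lists as noncoding (identifiers that begin with NR_) and that had at least 100 reads over the Ctr and Clp1 knockdown libraries together, with 1 transcript kept per gene symbol. They number 922 of the 30794 rows of the count table, taken from 3406 noncoding transcripts, of which 2358 had fewer than 100 reads and 126 were further isoforms of a symbol already kept. The members were chosen by their total reads, so abundance is part of the choice, and the comparison of the libraries is not, except that a transcript read in a single library could enter only through that library: 6 members had 0 reads in Ctr and 4 had 0 reads in the knockdown. Just inside the limit stood Appbp2os, with 66 reads in Ctr and 34 under knockdown, Mir5046, with 59 and 41, and Chn1os3, with 16 and 84. Just outside stood Pantr1, with 0 and 99, Gm3230, with 78 and 21, and Zscan4a, with 94 and 5.

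There was 1 library per group, and both came from the same lentigenic mouse. Fertilized B6 oocytes had received a lentivector in which shRNAs against Clp1 stand downstream of the doxycycline-inducible TRE3G promoter and upstream of the green reporter ZsGreen, with the TetOn3G transactivator under the EF1 promoter. Mice were fed doxycycline (2 g/kg food) for 2 weeks from 3 weeks of age, and their medullary thymic epithelial cells with high MHC class II (mTEChi; CD45-, Ly51-, I-A/E high) were sorted into reporter-positive cells (Clp1 knockdown) and reporter-negative cells (Ctr). Both groups therefore share the drug and the animal, and no difference below has a replicate check. Whether the reporter-negative cells carried the vector is not stated. The intervals given are exact 95% intervals that cover counting error only, and in such sorted bulk samples fewer cells of a type and less RNA per cell cannot be told apart.

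The Ctr library held 28464803 counted reads and the knockdown library 37524730. Clp1 itself had 1573 reads in Ctr and 812 under knockdown, for a log2 ratio of -1.33 (interval -1.46 to -1.21) after median-of-ratios scaling, or 39.7% of the Ctr level. Markers of several other cell types were lower in the knockdown: 8 of 8 endothelial markers (665 CPM in sum in Ctr and 64.8 CPM in the knockdown, where CPM are reads scaled by library total), 4 of 4 red cell markers with at least 10 reads (3155 and 102), 11 of 14 thymocyte markers (552 and 158), 6 of 9 markers of fibroblasts and mural cells (615 and 321), 5 of 7 cortical epithelial markers (1137 and 754), 4 of 7 B cell markers (64.8 and 29.4) and 5 of 11 markers of dendritic cells and macrophages, with 1 higher (517 and 554). Of 11 medullary markers 5 were higher and 1 lower (7085 and 8332), and Aire, the transcription factor that defines mature mTEChi, had 7462 and 8264 reads in the row that stands for it, a noncoding isoform. None of these markers was at 0 in either library, and the part of the admixed cells in the ratios below was not tested. By the same rule, given below, 19.7% of all transcripts with at least 10 reads were lower and 22% higher. Hba-a1 and Hba-a2 had identical counts (35526 reads in Ctr and 1478 under knockdown in each), so the red cell tally and sum hold the same reads more than once.

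Noncoding RNAs reach their mature form by different routes. Most long noncoding RNAs are cleaved and polyadenylated like mRNAs, by the machinery to which Clp1 belongs, whereas small structured RNAs such as the RNA of RNase P end without a poly(A) tail, and most snoRNAs and many microRNAs are cut out of the introns or exons of a longer host transcript. The cDNA kit used here primes from runs of A, so RNAs without a tail are read only in part. Clp1 is also known as an RNA kinase that works with the tRNA splicing endonuclease. In thymic epithelium mTEChi are known for transcribing a wide range of tissue-restricted genes, and many loci are read there in few cells.

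The noncoding transcripts were called in shares close to those of the whole table. A transcript was called higher or lower where its scaled ratio was at least 2-fold and the interval of the ratio excluded no change. Of the 922 members 153 were called higher (16.6%) and 161 lower (17.5%), beside 17.3% and 17.2% of all 15461 transcripts that stand for a symbol with at least 100 reads, and 17.2% and 17.2% of the 14764 protein-coding ones. The median log2 ratio was -0.0015 in the members and -0.00074 over all transcripts. Medians of the classes ran from -1.83 to 0.34, as the plot by class shows. For the 10 members with 0 reads in a library a bound against 3 reads is given in place of a ratio, and in the 5 classes that hold them the class median was the same to 2 decimals with these members at their bound.

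**Figure D1:**
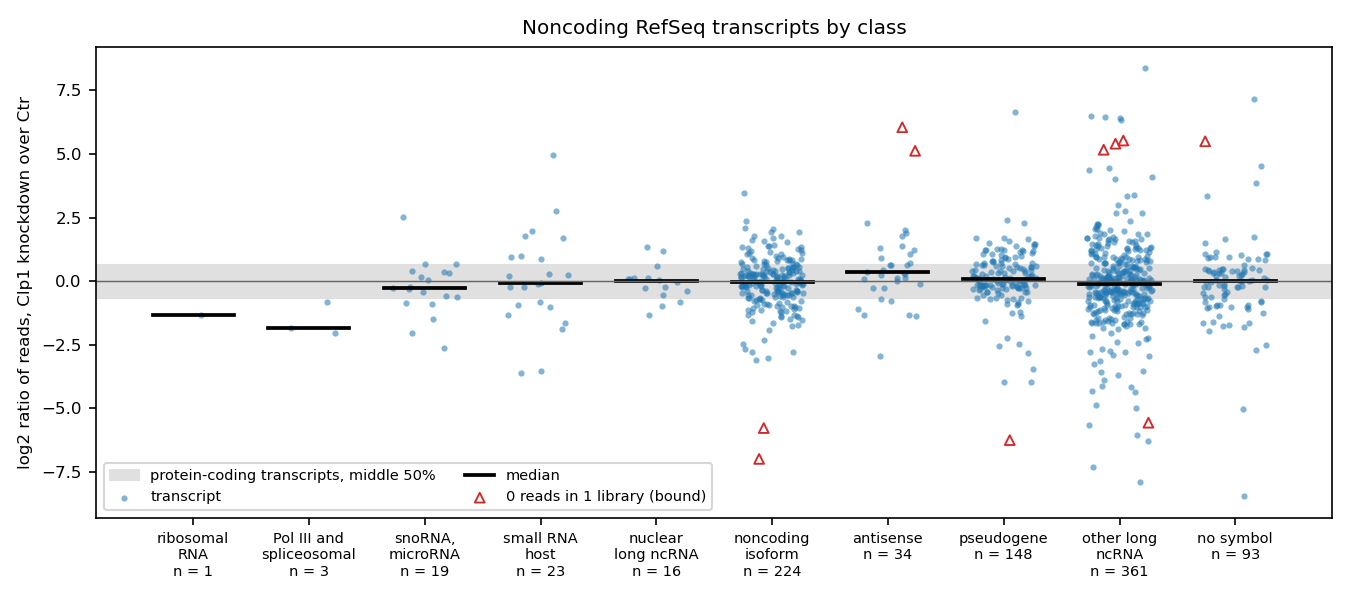
Each point is 1 noncoding RefSeq transcript (x axis: class, with the number of transcripts), and the y axis is the log2 ratio of its scaled reads in the Clp1 knockdown over Ctr. Black lines are class medians, red triangles are transcripts with 0 reads in 1 library drawn at their bound, and the grey band holds the middle of the protein-coding transcripts; the RNA polymerase III and spliceosomal class (median -1.83) lies below the band, while the larger classes are centred near 0.

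By share of reads, 2 transcripts outweighed all others. The members took 6.32% of the Ctr reads and 4.82% of the knockdown reads. Malat1, a nuclear speckle RNA at chr19:5795690-5802671 (mm9, minus strand, a single long transcript), took 2.04% of the Ctr reads (581232) and 2.13% of the knockdown reads (799084). The transcript NR_046233, for which no symbol was found in the RefSeq table, took 2.24% (637728 reads) and 0.652% (244847 reads), at a log2 ratio of -1.76. Without NR_046233, in the class and in the total, the members took 4.17% of Ctr and 4.20% of the knockdown (an alternative chosen after seeing the data), so the lower share in the knockdown lay in that transcript.

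Of the 4 ribosomal, RNA polymerase III and spliceosomal RNAs among the members, 3 were called lower in the knockdown and none higher. Over all transcripts 17.2% were called lower and 17.3% higher. Rpph1, the RNA subunit of RNase P, which trims the leader of tRNA precursors, had 1772 reads in Ctr and 566 under knockdown, for a log2 ratio of -2.03 (interval -2.16 to -1.89). Rmrp, the RNA of the related RNase MRP, which cuts rRNA precursors, had 146 and 53 reads, for a log2 ratio of -1.84 (-2.32 to -1.38). Rn4.5s, the 4.5S RNA of rodents, had 492 and 254 reads, for a log2 ratio of -1.33 (-1.56 to -1.11). The intervals of Rpph1, Rmrp and Rn4.5s did not reach 0. Rn4.5s was put in the ribosomal class by a list of symbols, and was the only member matched to that list. Members without a symbol, NR_046233 among them, could not be placed in the ribosomal class. Vaultrc5, a vault RNA whose counts were identical to those of a row of Acot11, had 567 and 422 reads, for a log2 ratio of -0.80 (-0.99 to -0.62), which is below the 2-fold limit.

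The same direction was seen in 2 of the 3 snoRNAs among the members. Snora81 and Snora30 are box H/ACA snoRNAs, which guide the change of uridine to pseudouridine. Snora81 had 468 reads in Ctr and 150 under knockdown, and Snora30 had 109 and 23, log2 ratios of -2.02 (-2.30 to -1.75) and -2.62 (-3.34 to -1.96). Snora28 went the other way, with 36 and 74 reads, at 0.66 (0.07 to 1.28). Under the limit of 100 reads the tally was wider: of 40 snoRNAs and other structured RNAs with at least 10 reads, 20 were called lower and 4 higher, with a median log2 ratio of -1.26, beside 19.7% lower and 22% higher among all 18979 transcripts with at least 10 reads. Rnu12, a small nuclear RNA of the minor spliceosome, had 57 reads in Ctr and 22 under knockdown. Terc, the RNA of telomerase, had 28 reads in Ctr and 1 under knockdown, and Snora23 had 74 and 9. The 4 that were higher, Snora7a, Snord22, Snora31 and Snord33, had between 0 and 8 reads in Ctr.

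Of the snoRNAs with a measured gene around them, Snora81 stood below its gene beyond counting error, and Snora28 did not. Snora81 lies inside Eif4a2, a translation initiation helicase, which had 2712 reads in Ctr and 5448 under knockdown, for a log2 ratio of 0.63, so the snoRNA row stood 2.65 below its gene on the log2 scale. Snora28 lies inside Eif5, which had 2902 and 6917 reads and a log2 ratio of 0.87. The row of Snora28 stood 0.214 below it, and its interval (0.07 to 1.28) held the ratio of Eif5. The microRNA hairpin rows, 16 in all with 100 to 13403 reads over both libraries, had log2 ratios from -1.47 to 2.51. The reads were too long to come from mature microRNAs, so a hairpin row counts longer RNA that spans the hairpin. Of the 15 hairpins inside a measured protein-coding gene, 10 stood within 0.2 of the log2 ratio of that gene. Mir5107 had 4903 reads in Ctr and 8500 under knockdown, for a log2 ratio of 0.42, inside Cd74, the invariant chain of MHC class II, at 0.39. Mir546 had 83 and 39 reads, for a log2 ratio of -1.47, inside Ctdsp2 at -1.37. The largest departure was Mir704, with 12 reads in Ctr and 89 under knockdown, for a log2 ratio of 2.51 (1.64 to 3.52), inside Pdia4 at 1.20. Rows inside a gene share reads with it wherever exons overlap.

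**Figure D2:**
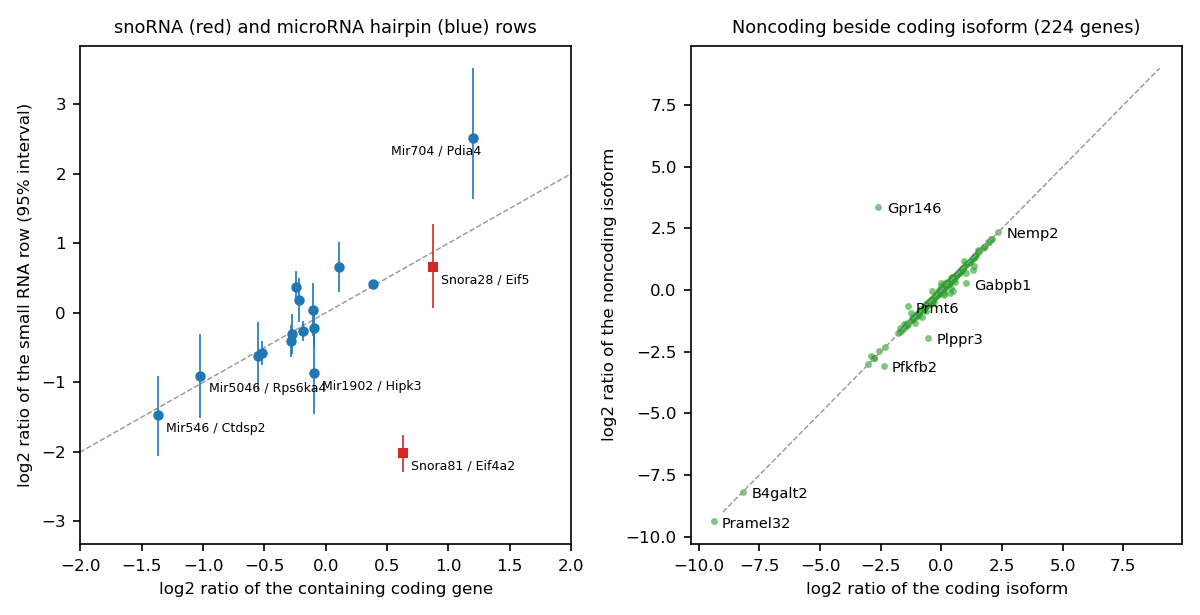
Left, the log2 ratio (knockdown over Ctr) of each snoRNA row (red squares) and microRNA hairpin row (blue circles), with its exact interval, against that of the protein-coding gene that contains it. Right, the log2 ratio of each noncoding isoform against the coding isoform of the same gene, with 0.5 added to scaled reads; dashed lines mark equal ratios, Snora81 lies 2.65 below its line, and Gpr146 stands apart in the right panel.

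The hosts of snoRNAs, long transcripts whose introns release snoRNAs, lay on both sides of 0. Of 15 host transcripts 2 were called higher (13.3%) and 3 lower (20%), and the median log2 ratio was 0.21. These shares are near those of all transcripts, 17.3% and 17.2%. Snhg4 had 42 reads in Ctr and 215 under knockdown, for a log2 ratio of 1.98 (1.49 to 2.49), and Snhg1 had 27 and 114, at 1.70 (1.08 to 2.36). Just under the 2-fold limit were Snhg12 (113 and 289 reads, 0.98), Snhg17 (677 and 1705, 0.95) and Snhg6 (202 and 480, 0.87). The intervals of these 5 lay above 0, as did those of Snhg5 (0.30) and Snhg15 (0.23). On the other side Snhg16 had 141 reads in Ctr and 50 under knockdown, at -1.87 (-2.37 to -1.40). Snhg7 had 141 and 74, at -1.31, and Dancr had 85 and 55, at -1.01 (-1.52 to -0.50). Snhg18 (-0.92) and Snhg20 (-0.82) were lower by less than the limit, and Snhg3, Taf1d and Snhg8 lay between -0.23 and 0.21. RefSeq places no snoRNA gene inside Snhg20, so it is a host by its list and not by its map.

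Many snoRNA hosts start at a run of pyrimidines, the feature that places ribosomal protein mRNAs under growth control, and the first 20 bases of 4 hosts are shown to compare hosts with ratios above 0 (Snhg1, and Snhg12 just under 2-fold) with those called lower (Snhg7 and Snhg16). Capitals mark the first unbroken run of at least 5 bases that are C or T. It was sought anywhere in the 20 bases and not only at the first, and in Snhg1 and Snhg16 it lies further in. The search therefore does not measure the feature named for ribosomal protein mRNAs. The sequences are from RefSeq (GRCm38.p6), and each start was found once on its chromosome of mm9 by exact match, at chr19:8797977-8797996 (plus strand), chr4:131864593-131864612 (plus), chr2:26495745-26495764 (minus) and chr11:116532974-116532993 (plus).
Snhg1: ctcaTTTTTCCTTgttcggg
Snhg12: TTTCTCgcttcatccgcggt
Snhg7: CTCTCggcagccatggcggc
Snhg16: gatctcgTCCTTTCCgaggt
Of the 13 hosts with a RefSeq start, 11 held such a run in these 20 bases, against 32.9% of 27025 RefSeq starts and 52.5% of the 61 ribosomal protein genes, and the run was present in hosts of both directions.

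The hosts of microRNAs spread further than the snoRNA hosts. Of 8 host transcripts 3 were called higher (37.5%) and 3 lower (37.5%), beside 17.3% and 17.2% of all transcripts, a difference that was not tested. Mir17hg, the host of the miR-17-92 cluster, had 7 reads in Ctr and 286 under knockdown, for a log2 ratio of 4.97 (3.91 to 6.30), or 0.105 and 3.26 RPKM, reads scaled by transcript length and library total. Mir99ahg had 12 and 105 reads, at 2.75 (1.89 to 3.75), and Ftx, a noncoding gene of the X-inactivation centre that carries microRNAs, had 31 and 139, at 1.79 (1.22 to 2.40). Lower were Mirt1 (245 reads in Ctr and 26 under knockdown, -3.61), Meg3 (144 and 16, -3.55) and Mir100hg (114 and 47, -1.66). RefSeq places no microRNA gene inside Mirt1, so it too is a host by its list alone. Dleu2, the host of miR-15a and miR-16, had 638 and 789 reads at -0.07, and Mir22hg had 555 and 671 at -0.10. Markers of fibroblasts and endothelium, 6 of 9 and 8 of 8 lower, moved with the hosts that were lower, and their part in these ratios was not tested. Carmn, which the host list holds under an older symbol and which was counted with the other long noncoding RNAs, had 95 and 219 reads at 0.83 (0.47 to 1.19) and was not called. Below the limit of 100 reads stood Mir9-3hg, with 90 reads in Ctr and 2 under knockdown.

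The mature microRNAs themselves were not measured, and their sequences are shown to identify what these hosts carry, since microRNAs of the same seed lie in or beside 2 transcripts of opposite direction. Capitals mark the seed (bases 2 to 8), and the sequences are from RefSeq (GRCm38.p6). On mm9 the Mir17hg cluster runs on the plus strand from miR-17-5p at chr14:115442906-115442928 to miR-92a-3p at chr14:115443698-115443718, inside the GENCODE span of Mir17hg. The RefSeq transcript that was counted holds only 1 of its hairpins, that of miR-92a. The other positions, all on the plus strand, are chr9:41339520-41339541 (miR-100-5p), chr9:41390023-41390044 (miR-125b-5p), chr16:77599185-77599206 (miR-99a-5p) and chr16:77599917-77599938 (let-7c-5p).
miR-17-5p (Mir17hg): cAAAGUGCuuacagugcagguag
miR-20a-5p (Mir17hg): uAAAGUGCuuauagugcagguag
miR-18a-5p (Mir17hg): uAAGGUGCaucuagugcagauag
miR-19a-3p (Mir17hg): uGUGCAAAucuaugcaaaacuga
miR-19b-3p (Mir17hg): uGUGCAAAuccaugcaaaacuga
miR-92a-3p (Mir17hg): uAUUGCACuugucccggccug
miR-100-5p (Mir100hg): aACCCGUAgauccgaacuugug
miR-125b-5p (Mir100hg): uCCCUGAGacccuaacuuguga
miR-99a-5p (downstream of Mir99ahg): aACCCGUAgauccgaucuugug
let-7c-5p (downstream of Mir99ahg): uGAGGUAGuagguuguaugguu
The miR-17 and miR-20a seeds are the same, as are those of miR-19a and miR-19b. The seed of miR-100, whose host Mir100hg was lower in the knockdown (114 and 47 reads), is also the seed of miR-99a, which lies next to Mir99ahg, higher in the knockdown (12 and 105 reads).

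**Figure D3:**
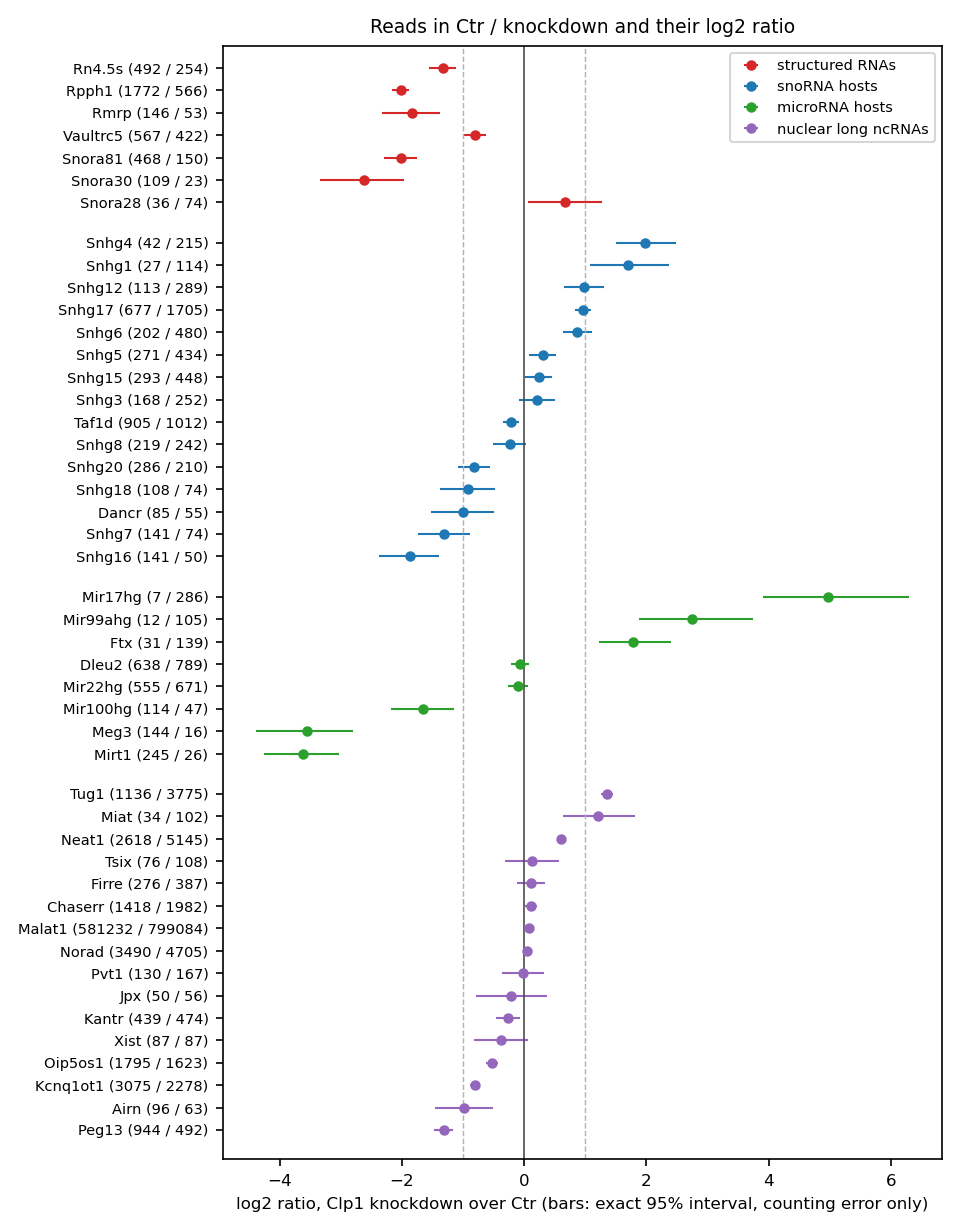
The log2 ratio of reads (x axis, knockdown over Ctr) of every member in the structured, snoRNA host, microRNA host and nuclear groups, with its exact interval for counting error, and the reads in Ctr and in the knockdown beside each name. Dashed lines mark 2-fold; 6 of the 7 structured RNAs lie left of 0, both kinds of host lie on both sides, and most nuclear RNAs lie between the dashed lines.

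Nuclear long noncoding RNAs kept close to the middle, with 2 of 16 called higher (12.5%) and 1 lower (6.25%) and a median log2 ratio of 0.02. Of all transcripts 17.3% were called higher and 17.2% lower. Malat1 was at 2925 RPKM in Ctr and 3049.97 RPKM under knockdown, a log2 ratio of 0.08 (0.08 to 0.09). Norad, a cytoplasmic decoy of Pumilio proteins placed on the same list, had 3490 and 4705 reads at 0.05. Neat1, the scaffold of paraspeckles at chr19:5824708-5845478 (minus strand), had 2618 reads in Ctr and 5145 under knockdown, for a log2 ratio of 0.60 (0.53 to 0.66), and was higher beyond counting error without reaching 2-fold; the row counted is the short form of the RNA, 3177 bases long. Tug1 had 1136 and 3775 reads, at 1.35 (1.26 to 1.45) (8.46 and 21.3 RPKM), and was the most abundant RNA of the class to be called higher. Miat had 34 and 102 reads, at 1.21 (0.63 to 1.81). Oip5os1 (-0.52), Kantr (-0.27), Pvt1 (-0.02) and Chaserr (0.10) were not called. Of 10 genes of paraspeckle proteins, which bind Neat1, 2 were called higher (Pspc1 and Hnrnpa1) and none lower, with a median log2 ratio of 0.22, and 17.3% of all transcripts were called higher.

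Among imprinted noncoding RNAs, Kcnq1ot1, the paternally expressed RNA that silences its domain in cis, had 3075 reads in Ctr and 2278 under knockdown, for a log2 ratio of -0.81 (-0.89 to -0.73). Peg13 had 944 and 492 reads, at -1.32 (-1.48 to -1.16), while Trappc9, the gene in which it lies, had 1318 and 1391, at -0.30. Airn, which silences Igf2r in cis, had 96 and 63, at -0.99. Of 13 genes of the list with at least 10 reads 6 were called lower, among them Meg3 and Rian of the Dlk1-Dio3 domain and Peg13, and 1 higher (Zim3, 1 and 32 reads), with a median of -0.98; 19.7% of all transcripts at that limit were called lower. The list is not purely noncoding or imprinted as matched: Mcts2, among the 6, was read from a coding row (489 and 253 reads, -1.33), and Oip5os1 entered through an older symbol and may not be imprinted. The X-inactivation genes stood apart from these: Xist had 87 reads in each library, a log2 ratio of -0.38 (-0.82 to 0.07), Tsix had 76 and 108, Jpx 50 and 56, and Firre 276 and 387. Of that group Ftx was the one called.

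Antisense transcripts are here those whose symbol adds as, os or ot to that of another gene, or that RefSeq types as antisense. The class rests on these names, and the ending ot, as in Sox2ot, does not by itself mark the opposite strand. Of 34 members 10 were called higher (29.4%) and 5 lower (14.7%), beside 17.3% and 17.2% of all transcripts, with a median log2 ratio of 0.34, and the difference from other classes was not tested. Tbx3os2 had 0 reads in Ctr and 258 under knockdown, at least 66.2-fold higher with Ctr set to the floor of 3 reads, and Hectd2os had 0 and 136, at least 34.9-fold higher. Phtf1os had 100 and 642 reads, for a log2 ratio of 2.30 (2.00 to 2.62), and Sp3os had 91 and 444, at 1.91 (1.58 to 2.25). Cep83os, Lppos, Dnm3os, Fzd10os, Plet1os and Chn1os3 were the other 6 called higher. Lower were Rptoros (203 reads in Ctr and 34 under knockdown, -2.96), Msx1os (357 and 180, -1.37), Appbp2os (66 and 34, -1.34), Zfhx2os (105 and 55, -1.31) and Sox2ot (137 and 84, -1.08). The 2 with most reads were not called: Tomm6os had 937 and 1025 reads at -0.25, and Has2os 310 and 633 at 0.65.

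Beside their partner genes the antisense transcripts were mixed. In 35 pairs with at least 100 reads in each partner, a few of them RNAs of the nuclear group, the correlation of the log2 ratios was 0.39, a description over pairs that share both libraries. Of 15 antisense transcripts called, 12 had a partner on the same side of 0, 6 had a partner called in the same direction and 2 a partner called in the opposite one. Sp3os stood at 1.91 beside Sp3, a zinc finger transcription factor with 1354 and 5626 reads, at 1.68, and Msx1os at -1.37 beside the homeobox gene Msx1 (552 and 270 reads, -1.41). Hectd2os went with Hectd2 (10 reads in Ctr and 240 under knockdown, 4.21). Against their partners went Tbx3os2, beside Tbx3 with 1102 and 649 reads at -1.14, and Dnm3os at 1.32 (40 and 130 reads) beside Dnm3 at -1.50 (573 and 264 reads). Where a pair overlaps, the reads of its members cannot be told apart, since strand was not stated for these libraries.

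The 34 antisense transcripts were part of a wider pattern by position. The long noncoding classes together (hosts, nuclear, antisense and other long noncoding RNAs) held 434 transcripts. In 243 that overlap a protein-coding gene with at least 100 reads, the log2 ratios of RNA and gene correlated at 0.63, and in 163 whose nearest such gene lies clear of them the correlation was 0.0028. Of 53 overlapping RNAs called lower 27 had a gene called lower and 2 a gene called higher, and of 42 called higher 13 had a gene called higher and 2 lower. Of 35 RNAs called lower beside a gene that does not overlap, 8 had a gene called lower and 4 higher. Among all protein-coding transcripts with at least 100 reads 17.2% were called lower and 17.2% higher. The correlations are descriptions over transcripts of the same 2 libraries. A read was counted in every transcript whose exon holds it, and strand was not stated, so overlapping rows can share reads. The part of shared reads in the correlation of 0.63 was not tested.

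**Figure D4:**
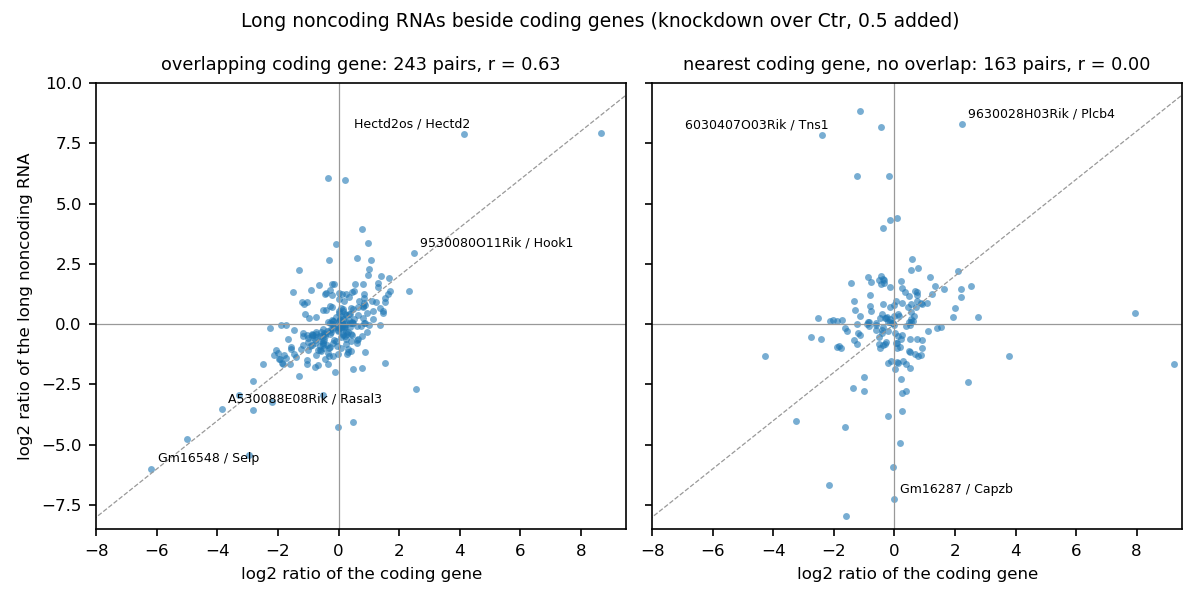
The log2 ratio (knockdown over Ctr, 0.5 added to scaled reads) of each long noncoding RNA against that of its protein-coding neighbour, for genes that overlap it (left, 243 pairs) and for the nearest gene that does not (right, 163 pairs). Dashed lines mark equal ratios. The points follow the line on the left (r = 0.63), where overlapping rows can share reads, and show no slope on the right.

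Examples of overlapping RNAs that were lower lay in genes of endothelium and blood cells. Gm16548 had 565 reads in Ctr and 11 under knockdown, for a log2 ratio of -6.06 (-7.07 to -5.21), and overlaps Selp, the P-selectin of endothelium and platelets, with 3561 and 63 reads at -6.20. Gm16897 had 323 and 54 reads, at -2.96, and overlaps Cd34, a sialomucin of endothelium and blood progenitors, with 4960 and 661 reads at -3.29. A530088E08Rik (223 and 25 reads, -3.54) overlaps Rasal3 (1536 and 138 reads, -3.85). The endothelial markers fell with them, 8 of 8 beside 19.7% of all transcripts with at least 10 reads, from 665 to 64.8 CPM in sum. The part of endothelial cells in these ratios was not tested. On the rising side 9530080O11Rik had 15 reads in Ctr and 154 under knockdown, at 2.98, and overlaps Hook1 with 340 and 2487 reads at 2.49.

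Among the 361 other long noncoding RNAs 71 were called higher (19.7%) and 80 lower (22.2%), with a median of -0.10. Over all transcripts these shares were 17.3% and 17.2%, and the difference was not tested. The largest differences by the bound of the interval nearest to no change were 6030407O03Rik, with 1 read in Ctr and 428 under knockdown (log2 ratio 8.36, interval 5.88 to 13.7), 9630028H03Rik, with 0 and 180 (at least 46.2-fold higher), 6720468P15Rik, with 0 and 165 (at least 42.3-fold), and A230056P14Rik, with 0 and 140 (at least 35.9-fold). Each of these was close to absent in Ctr. Their neighbours differed: A230056P14Rik overlaps Nipa1, which had 0 and 234 reads, 9630028H03Rik lies next to Plcb4 (274 and 1669 reads, 2.23), and 6030407O03Rik lies next to Tns1, which went the other way (2246 and 557 reads, -2.39). On the falling side were Gm16287, with 184 reads in Ctr and 1 under knockdown (-7.90, interval -13.2 to -5.41), 4930432J09Rik, with 121 and 1 (-7.30, -12.6 to -4.79), Gm16548 (above), and Gm16863, with 109 and 0 (at least 47.2-fold lower). BC064078, with 2510 and 3533 reads, stood at 0.11, and Gm20605, with 3506 and 1910, at -1.25 beside the overlapping gene Lrch4 at -1.46 (3341 and 1574 reads).

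In ranges of equal read number the share of long noncoding RNAs called was below that of protein-coding transcripts, a difference that was not tested. With 100 to 200 reads 82 of 154 long noncoding RNAs were called (53.2%) against 68.6% of 1499 protein-coding transcripts, and the spread (SD) of the log2 ratios was 2.41 against 3.38. With 200 to 500 reads the shares were 40.9% and 54.3%, with 500 to 1000 reads 34.6% and 39.9%, and with 1000 or more 14% and 21.1%. The order was the same in these 4 ranges, which were set after seeing the data.

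Transcribed pseudogenes, copies of genes that no longer encode their protein, were called higher in 25 of 148 (16.9%) and lower in 12 (8.11%), with a median log2 ratio of 0.11. The share called higher was close to that of all transcripts (17.3%), and the share called lower was below it (17.2%), a difference that was not tested. Macroh2a3 had 210 reads in Ctr and 860 under knockdown, at 1.66 (1.44 to 1.88). The others that led were 1700073E17Rik (1 and 129 reads, 6.63, interval 4.13 to 11.9), BC021767 (26 and 178, 2.40) and B630019K06Rik (20 and 126, 2.28). Falls were led by Gm9696, with 175 reads in Ctr and 0 under knockdown (at least 75.8-fold lower), AI854703 (228 and 27, -3.46), and Gm18852 and Gm18853, which had the same counts, 562 and 47 (-3.96), so their reads cannot be split. The most abundant were Ubb-ps (22446 and 32115 reads, 0.14) and Oaz1-ps (7010 and 7938, -0.20), both close copies of expressed genes whose reads they may share.

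Noncoding isoforms of protein-coding genes, often spliced forms that nonsense-mediated decay would remove, followed their coding isoform. Of 224 genes 202 (90.2%) had a noncoding isoform within 0.2 of the log2 ratio of the coding isoform with most reads, 40 pairs had identical counts, and 211 had the same call. The deposited counts give a read to every transcript whose exon holds it, so the reads of such a pair are largely the same reads. By class 26 were called higher (11.6%) and 33 lower (14.7%), beside 17.3% and 17.2% of all transcripts, with a median of -0.02. Nemp2 (93 reads in Ctr and 621 under knockdown, 2.36) and Pramel32 (292 and 0, at least 127-fold lower) had the same counts in both isoforms, as did B4galt2 (126 and 0, at least 54.6-fold lower). Krit1 (351 and 1917 reads, 2.07), Dlg1 (279 and 1403, 1.95) and 1110017D15Rik (149 and 24, -3.01) stood within 0.05 of their coding isoform. Fth1, the ferritin heavy chain and the member of the class with most reads, had 32515 and 36601, at -0.21, and Srsf3, a splicing factor, had 7905 and 11537, at 0.17.

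In 22 genes the isoforms parted by 0.2 or more, the noncoding one lower than the coding one in 15 and higher in 7. The widest gap was in Gpr146, an orphan receptor, whose noncoding isoform had 8 reads in Ctr and 114 under knockdown (3.45, interval 2.43 to 4.70) while its coding isoform had 2257 and 486 (-2.59). The noncoding isoform of Plppr3 had 268 and 91 reads (-1.94), beside a coding isoform at 534 and 475 (-0.55), and that of Pfkfb2 had 335 and 51 (-3.09), beside 321 and 80 (-2.38). Of 14 nonsense-mediated decay genes measured, Upf1, its central helicase, was the one called, with 1770 reads in Ctr and 1097 under knockdown (-1.07, interval -1.18 to -0.96). The median of these 14 was 0.24. Over all transcripts 17.3% were called higher and 17.2% lower.

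Genes whose products make or trim noncoding RNAs were looked at beside the members, and 17.3% of all transcripts were called higher. Of the 14 snoRNP protein genes 4 were higher and none lower with 100 reads or more: Dkc1, the pseudouridine synthase of H/ACA snoRNPs (246 reads in Ctr and 934 under knockdown, 1.55), Nop58 (695 and 2184, 1.27), Naf1 (60 and 162, 1.05) and Nolc1 (958 and 2509, 1.01). Their median was 0.11. Of the 19 genes of rRNA synthesis and processing 3 were higher (Ncl, Rrp1b and Taf1b), of the 20 genes of the nuclear exosome and its adaptors 2 (Exosc10, a 3' exonuclease, with 461 and 1924 reads at 1.68, and the helicase Mtrex), and of the 14 Integrator subunits, which cleave snRNA and other noncoding precursors, 4 (Ints2, Ints12, Ints11 and Ints10), and none was lower. The medians of these 3 lists were 0.38, -0.0015 and 0.39. The difference of these counts from the share over all transcripts was not tested.

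The deposited parts table splits transcripts at an annotated internal polyadenylation site. The readout is the ratio of reads per base downstream (distal) over upstream of that site. In some noncoding rows the 2 parts held all reads of the transcript: 66 and 21 of 87 Ctr reads in Xist, and 30 and 4 of 34 in Miat. The upstream part can therefore hold exons other than the last. A change of the ratio is not a measure of 3' end use alone, and the part of other exons was not tested. This readout was added after the data were seen. It was available for 94 members with at least 10 reads over the split in each library, of which 53 were not isoforms of coding genes. Among these 53 the ratio was 2-fold higher beyond counting error in 9 (17%) and lower in 6 (11.3%), with a median log2 change of 0.12, beside 13.8% higher and 12.6% lower and a median of 0.0019 in 5507 protein-coding transcripts. The shares lie near that background.

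Single transcripts moved further. Miat had 30 upstream and 4 distal reads in Ctr and 4 upstream and 98 distal reads in the knockdown, a log2 change of 7.21 (5.22 to 9.98). Cep83os had 125 upstream and 0 distal reads in Ctr and 496 and 57 in the knockdown. Dubr had 52 and 3 in Ctr and 121 and 121 in the knockdown, at 3.91 (2.42 to 6.47). In each of these the distal part took a larger share of the reads. Gm38431, deeper than these, had 1494 upstream and 46 distal reads in Ctr and 859 and 160 in the knockdown, at 2.59 (2.10 to 3.12). The abundant nuclear RNAs moved by less than 2-fold in the same direction: Neat1 by 0.55 (0.41 to 0.69), from 1511 and 1068 reads to 2486 and 2569, Chaserr by 0.52 (0.31 to 0.74) and Tug1 by 0.36 (0.14 to 0.58). In the opposite direction Gm15760 moved furthest, from 0 upstream and 78 distal reads in Ctr to 73 and 41 in the knockdown (-8.12, upper end of the interval -5.07). Gm14057 went from 14 and 54 to 170 and 61 (-3.38, -4.48 to -2.43). Xist went from 66 upstream and 21 distal reads to 79 and 8 (-1.60, -3.12 to -0.30). Snhg17, which was not called, went from 471 and 197 to 1339 and 346 (-0.70, -0.99 to -0.40).

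**Figure D5:**
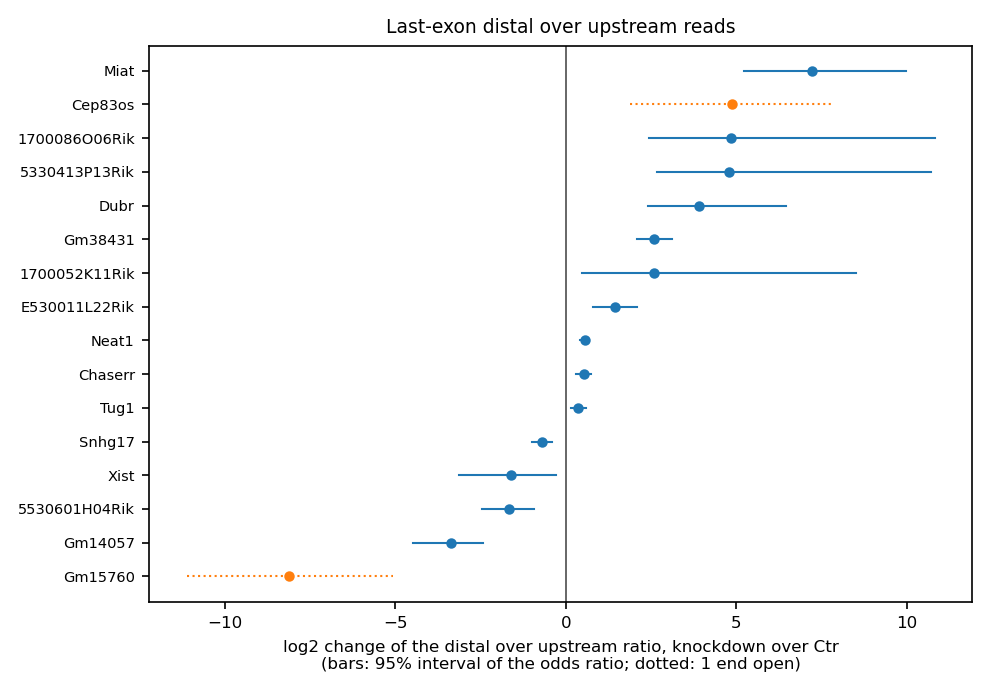
The log2 change (x axis, knockdown over Ctr) of the distal over upstream ratio, where the upstream part can hold exons other than the last. Shown are the members with a symbol, other than isoforms of coding genes, that were called in either direction, and Neat1, Chaserr, Tug1 and Snhg17. Bars are the interval of the odds ratio for counting error, dotted where one end is open. On the right 8 long noncoding RNAs lie beyond 1, led by Miat at 7.21, and on the left Gm15760 lies furthest out at -8.12.

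Of the members without a symbol in the RefSeq table, 93 in all, 13 were called higher (14%) and 18 lower (19.4%), with a median of 0.02. These shares are near those of all transcripts, 17.3% and 17.2%. NR_045766 had 19 reads in Ctr and 573 under knockdown, NR_045098 had 0 and 176, at least 45.1-fold higher, and NR_033355 had 269 and 1. No position or function is given for them here.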

How the data were processed

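mTEChi RNA of 1 Clp1 knockdown and 1 Ctr sort was made into cDNA libraries with the SMARTer Ultra Low Input and Nextera kits and sequenced single-end. According to the study's methods and the submitters' processing notes, the authors mapped the reads to mm9 with Bowtie (1.0.0) and deposited read counts per RefSeq transcript, a read being counted in each transcript with an exon that wholly contains it (bedtools), and in a second table counts per transcript part with the part's length. Strand and removal of duplicates are not given in the sources used here for these libraries. A further deposited file holds the authors' own comparison (DESeq) and was not used. Counted reads per library were 28464803 (Ctr) and 37524730 (knockdown).

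Libraries were put on 1 scale with size factors taken as the median of ratios over all transcripts (0.877 for Ctr and 1.14 for the knockdown; Python 3.11.15, SciPy 1.17.1, pandas 2.3.3). With 1 library per group no test was made: ratios carry exact (Clopper-Pearson) 95% intervals for counting error, and a call needs 2-fold and an interval that excludes 0. Medians use 0.5 added to scaled counts, and a count of 0 is set against a floor of 3 reads. Symbols and neighbours came from RefSeq (GRCm38.p6; 829 of the 922 members matched), positions from GENCODE vM1 and exact matches on mm9. Named transcripts were all members of the ribosomal, structured, host and nuclear groups (by value or range), and in the isoform, antisense, pseudogene and other classes the 4 with the largest rise, the 4 with the largest fall and the 2 with most reads. The other antisense transcripts, the examples over coding genes (Gm16897, A530088E08Rik and 9530080O11Rik), Plppr3 and the transcripts of the distal readout were chosen after their values were seen. The members and lists were chosen with earlier results of these data known. The calls were tested on simulated data. Alternatives were other scalings (edgeR 4.0.16 TMM, total counts), minimum reads, thinning and pseudocounts.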

Additional observations from a re-analysis of the deposited data

How the results depend on the processing

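The number of members called followed the read minimum: with at least 10 reads 425 were called higher and 368 lower, and with at least 500 reads 57 and 50, from 153 and 161 at 100 reads. At 10 reads the shares were 25.8% and 22.3%, beside 22% and 19.7% of all transcripts at that minimum. At 500 reads they were 12.7% and 11.2%, with no share over all transcripts taken there. With a minimum of 10 reads the median of the other long noncoding RNAs was 0.074 in place of -0.10. Counts and class medians under TMM factors, total counts, thinning of the deeper library, every noncoding transcript counted, no isoforms of coding genes and a pseudocount of 1 stayed within 1.5 times the count or within the spread of the class. Of 93 named transcripts compared, 93 had the same call under TMM and 92 under total counts, where Airn passed the 2-fold limit; with thinning Dancr dropped under it, 83 of 84 keeping their call. With every noncoding transcript counted, the share of reads was 6.50% in Ctr and 5.02% in the knockdown for all members, 2.11% and 2.20% for nuclear RNAs, and 1.14% and 1.15% for noncoding isoforms. Without NR_046233 in the class and total, these shares were 4.17% and 4.20%, 2.15% and 2.20%, and 1.03% and 1.02%, and 0.212% and 0.225% for members without a symbol, in place of 2.45% and 0.876%. No paired analysis was possible because each group has 1 library. A read minimum of 100 leaves intervals of up to several log2 units for transcripts near it.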

Other observations

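Replication-dependent histone genes, whose mRNAs end in a stem-loop and as a rule carry no poly(A) tail, were looked at after the values of the structured RNAs were seen. Of 61 histone genes with at least 100 reads 33 were lower in the knockdown by at least 2-fold beyond counting error and 0 were higher, with a median log2 ratio of -1.24, beside 17.2% lower among all transcripts. By family, of 16 H2ac genes 14 were lower, with a median of -1.65, and 12 of 12 H4c genes, with a median of -1.57. Of 11 H3c genes 4 were lower, with a median of -0.92, and of 6 H1f genes 3, with a median of -0.94. H2ac23 had 8260 reads in Ctr and 3030 under knockdown, a log2 ratio of -1.83. Of 16 H2bc genes none was lower or higher, with a median of 0.14: H2bc4 had 2476 reads in Ctr and 4831 under knockdown, at 0.59. The 16 H2ac genes summed to 40136 reads in Ctr and 16653 under knockdown, and the 16 H2bc genes to 6191 and 9651. Near-identical copies within a family can share reads, so its genes are not separate measurements.

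The antisense and opposite-strand transcripts of developmental transcription factors were mostly below the limit of 100 reads. Of 15 with at least 10 reads 6 were called higher and 5 lower. Pantr1 had 0 reads in Ctr and 99 under knockdown, Hotair 0 and 78, and Foxl2os 0 and 55. Wt1os had 74 reads in Ctr and 1 under knockdown, Hoxa11os 62 and 1, and Foxd2os 19 and 0. At these counts 22% of all transcripts were called higher and 19.7% lower.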
